A study of Homo sapiens with 18 samples.

Results

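*MYOM1* and 6 genes close to it on 18p11, part of the short arm of chromosome 18, were followed in HAP1 cells, a human line that carries about 1 copy of each chromosome. They are 7 of the 20329 genes with counts. *MYOM1* was chosen from measured values, its low RNA level in *ΔWAPL* clone 3.3 beside a level near control in *ΔWAPL* clone 1.14. Its levels are therefore a description and carry no test. The neighbours *SMCHD1*, *EMILIN2*, *LPIN2*, *MYL12A*, *MYL12B* and *TGIF1* were chosen by position, and the question was whether they shared the change of *MYOM1* over the 6 groups of samples.

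The RNA of *MYOM1* was 18.9-fold lower in clone 3.3 than in its controls and 65.1-fold lower in *ΔWAPL*/*ΔSCC4*, while it was 1.98-fold higher in *ΔSCC4* and 1.10-fold lower in clone 1.14. No neighbour came near such a loss. *EMILIN2* moved the other way, from a few reads per sample in control to 6.75-fold more in *ΔWAPL*/*ΔSCC4*. *MYL12A* and *TGIF1*, which lie past the start of *MYOM1*, were lower by about the same modest amount in both *ΔWAPL* clones. Of these clones, only 1.14 passed the main test against its controls. *MYL12A* also passed it, as higher, in *ΔWAPL*/*ΔSCC4* against clone 3.3. *LPIN2*, the next gene past the end of *MYOM1*, passed the main test in no comparison.

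Cohesin is a ring-shaped complex that holds DNA loops together. The SCC2/SCC4 complex loads it onto chromatin and WAPL releases it, so loss of WAPL prolongs its stay on DNA and loss of SCC4 impairs its loading. *MYOM1* encodes myomesin 1, which crosslinks thick filaments in the M-band of the sarcomere and is best known from skeletal muscle and heart.

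There were 3 samples in each of 6 groups, all HAP1, whose p53 function is impaired. Controls A and controls B were wild-type cells. *ΔWAPL* clones 3.3 and 1.14 carry a blasticidin resistance cassette put into *WAPL* with CRISPR, *ΔSCC4* cells carry a puromycin cassette in the SCC4 gene (*MAU2*), and *ΔWAPL*/*ΔSCC4* cells were made by removing SCC4 from *ΔWAPL* cells, which the sample label gives as clone 3.3. Each *ΔWAPL* genotype is thus 1 clone. Clone 1.14 was compared with controls B, because their files carry the same sequencing run and lane, and all other groups with controls A, whose files carry another. Each clone is in 1 run only, so clone and run cannot be told apart. The labels do not say that replicates were separate cultures, so p-values measure only the spread between these samples, which may be technical.

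Total counts on genes ranged from 10007646 to 20711127 per sample with a median of 16177867.5. *WAPL* RNA was lower by 1.2 on the log2 scale in clone 3.3 (edgeR's quasi-likelihood test with Benjamini-Hochberg adjustment, adjusted p = 0.000209), by 1.55 in clone 1.14 (edgeR, adjusted p = 7.44e-05) and by 1.13 in *ΔWAPL*/*ΔSCC4* (edgeR, adjusted p = 0.00134). *MAU2* averaged 0.699 CPM (counts per 1000000 counts on genes) in *ΔSCC4* and 0.936 in *ΔWAPL*/*ΔSCC4*, against 65.6 in controls A. *MYOM1* stood without a muscle programme in every group: the 12 skeletal muscle markers summed to between 0.796 and 2.28 CPM per sample, with *MYOD1*, *MYOG*, *MYF5* and *MYF6* at 0 reads in all 18. The 7 cardiac markers summed to between 7.55 and 9.96 CPM in controls A, 16 and 19 in clone 3.3, 10.8 and 13.4 in *ΔWAPL*/*ΔSCC4*, 11.7 and 17 in *ΔSCC4*, 13.1 and 15.3 in controls B and 13.3 and 14.1 in clone 1.14, most of it *RYR2*, with *ACTC1*, *TNNT2*, *MYL2* and *NKX2-5* at 0 in all samples, and their part in the *MYOM1* values was not tested. HAP1 derives from a leukaemia line, and its 8 blood and myeloid markers summed to at most 0.551 CPM, with *SPI1*, *MPO* and *HBG1* at 0 in all samples. In bulk RNA, fewer cells that express a gene and less RNA per cell cannot be told apart.

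Positions are given in GRCh37 (hg19), on chromosome 18. *MYOM1* runs on the minus strand from 3066805 to 3219966 and has 38 exons in its canonical transcript. Past its end lie *LPIN2* (minus strand, 2885294 to 3013142), *EMILIN2* (plus strand, 2847004 to 2916001) and *SMCHD1* (plus strand, 2655725 to 2805015). Past its start lie *MYL12A* (plus strand, 3247479 to 3256234), *MYL12B* (plus strand, 3261477 to 3278459) and *TGIF1* (plus strand, 3411606 to 3459976). Edge to edge, the nearest neighbour is *MYL12A* at 27.5 kb and the farthest *SMCHD1* at 261.8 kb. *EMILIN2* and *LPIN2* overlap at their 3′ ends on opposite strands. The libraries were strand-specific, but whether the counting used the strand is not given in the sources used here, so reads from the overlap may have gone to neither gene or to the other.

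The 250 bases before the start of the canonical transcript are shown for the 2 members that changed most, in opposite directions, and for *LPIN2*, which lies between them. They are read 5′ to 3′ on the strand of the gene, and capitals mark CpG dinucleotides and, in *MYOM1*, a CArG box, the site bound by serum response factor. The windows are chr18:3219967-3220216 (minus strand) for *MYOM1*, chr18:2846754-2847003 (plus strand) for *EMILIN2* and chr18:3013143-3013392 (minus strand) for *LPIN2*.
MYOM1: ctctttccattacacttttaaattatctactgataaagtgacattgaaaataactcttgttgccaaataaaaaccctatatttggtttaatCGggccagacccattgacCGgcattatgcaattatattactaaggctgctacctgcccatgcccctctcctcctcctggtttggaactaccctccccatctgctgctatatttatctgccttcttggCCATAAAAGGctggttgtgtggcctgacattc
EMILIN2: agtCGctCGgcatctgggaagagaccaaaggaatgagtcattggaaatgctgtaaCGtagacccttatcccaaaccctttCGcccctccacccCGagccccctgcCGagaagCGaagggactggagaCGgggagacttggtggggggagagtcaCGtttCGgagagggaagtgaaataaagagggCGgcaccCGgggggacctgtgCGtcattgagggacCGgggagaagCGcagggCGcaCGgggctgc
LPIN2: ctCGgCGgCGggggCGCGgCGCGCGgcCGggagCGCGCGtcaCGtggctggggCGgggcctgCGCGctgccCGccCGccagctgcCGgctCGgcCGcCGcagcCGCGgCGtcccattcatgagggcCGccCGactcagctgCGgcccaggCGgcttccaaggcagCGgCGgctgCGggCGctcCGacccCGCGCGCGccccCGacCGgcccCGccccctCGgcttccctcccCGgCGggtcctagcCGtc
The *MYOM1* window held 2 CpGs at a GC content of 42.4%. Of 19355 windows of the same length before the canonical starts of genes with counts, 7.32% held fewer CpGs. The *EMILIN2* window held 17 CpGs, close to the median of 18, and the *LPIN2* window held 45. Among the other members the number was 34 in *SMCHD1*, 9 in *MYL12A*, 40 in *MYL12B* and 34 in *TGIF1*. The GC box GGGCGG, searched on both strands, was in 59.5% of all windows but not in that of *MYOM1* or *MYL12A*. The CArG box began 32 bases before the *MYOM1* start and was in none of the other 6 windows. It was searched for after the sequence had been seen, and 1.15% of all windows hold one. These letters describe the windows and say nothing of what binds there.

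*MYOM1* levels were tight within each group. In controls A the 3 samples had 96.5, 97.9 and 99.9 CPM (98.1 ± 1.70, SD, n = 3). In clone 3.3 they had 6.19, 4.45 and 4.91 CPM (5.19 ± 0.901), from 63 to 124 reads. In *ΔWAPL*/*ΔSCC4* they had 1.42, 1.91 and 1.19 CPM (1.51 ± 0.365), from 21 to 31 reads. Every sample of these 2 genotypes thus lay more than 10-fold under every control, and the 2 did not overlap each other. In *ΔSCC4* the values were 188.4, 197.7 and 197.6 CPM (194.6 ± 5.32), above those of all other samples. Controls B had 83.3, 84.9 and 86.8 CPM (85 ± 1.74), and clone 1.14 had 78.7, 77.7 and 75.3 CPM (77.2 ± 1.75). From high to low the order was *ΔSCC4*, controls A, controls B, clone 1.14, clone 3.3 and *ΔWAPL*/*ΔSCC4*, and no 2 groups next to each other in it overlapped, whether the counts were scaled by TMM, by DESeq2's size factors or by the library total alone.

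**Figure D1:**
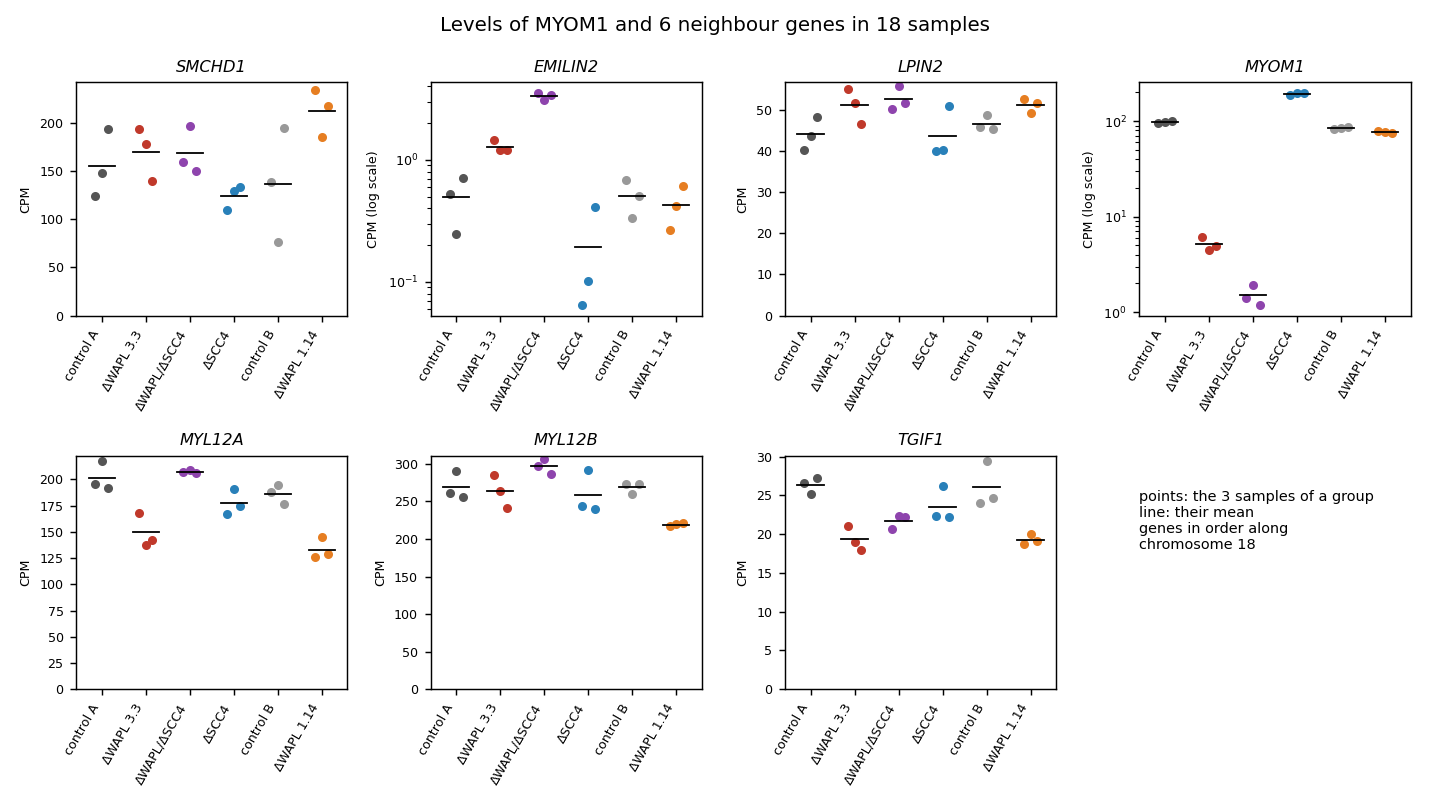
Level of each of the 7 genes in CPM, 1 panel per gene in order along the chromosome, over the 6 groups. Points are samples and lines group means, and the axis is logarithmic for *MYOM1* and *EMILIN2* and starts at 0 for the other genes. *MYOM1* sits between 1.19 and 6.19 CPM in the 6 samples that carry the clone 3.3 lesion and between 75.3 and 197.7 CPM in the other 12.

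On the log2 scale of the fitted model, *MYOM1* differed from controls A by -4.25 in clone 3.3, by -6.03 in *ΔWAPL*/*ΔSCC4* and by 0.98 in *ΔSCC4*. Among 12489 genes tested in clone 3.3, 28 had a more negative value, and among 12594 in *ΔWAPL*/*ΔSCC4*, 17 did. These comparisons share the controls A samples. In clone 1.14 the difference from controls B was -0.15, and 3151 of 12636 genes had a more negative one. Controls B differed from controls A by -0.21, so the step from control to clone 1.14 was smaller than the step between the 2 sets of controls. The change in clone 3.3 exceeded that in clone 1.14 by -4.08 on the log2 scale, and no test was run on it.

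Loss of SCC4 went with opposite values of *MYOM1* in wild-type cells and in clone 3.3. Among cells without WAPL, SCC4 was removed in clone 3.3 alone. Lack of WAPL and the background of that clone therefore cannot be told apart here. With WAPL present, *ΔSCC4* was higher than controls A in every sample. In the absence of WAPL, *ΔWAPL*/*ΔSCC4* was lower than clone 3.3 in every sample, by -1.80. Against *ΔSCC4*, *ΔWAPL*/*ΔSCC4* differed by -7.02, a ratio of 129, and 4 of 12604 genes had a more negative value.

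*EMILIN2*, an extracellular matrix glycoprotein, had the lowest level of the 7 genes in controls A and was higher in the 2 groups of the clone 3.3 lineage, where *MYOM1* was lower. Controls A had 0.520, 0.248 and 0.716 CPM, from 4 to 12 reads. Clone 3.3 had 1.45, 1.2 and 1.19 CPM, from 17 to 29 reads. *ΔWAPL*/*ΔSCC4* had 3.53, 3.08 and 3.40 CPM, from 50 to 62 reads. None of these 3 groups overlapped another. *ΔSCC4* had 0.0648, 0.101 and 0.413 CPM, from 1 to 6 reads, and its upper value lay within the range of controls A. Controls B (0.336 to 0.681 CPM) and clone 1.14 (0.266 to 0.605 CPM) overlapped.

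The 6 fibroblast markers summed to between 12.7 and 13.9 CPM in controls A, 16.1 and 21.3 in clone 3.3, 28.1 and 32.2 in *ΔWAPL*/*ΔSCC4*, 11.2 and 12.2 in *ΔSCC4*, 21.2 and 22.2 in controls B and 19.8 and 21.4 in clone 1.14, with *COL1A1* the only one over 1 CPM and *LUM* at 0 in all samples. The 4 epithelial markers, mostly *KRT18* and *KRT8*, summed to between 57.9 and 81.8 CPM in controls A, 60.1 and 65.9 in clone 3.3, 108 and 131 in *ΔWAPL*/*ΔSCC4*, 50.1 and 62.4 in *ΔSCC4*, 56.8 and 72.2 in controls B and 41.8 and 47.8 in clone 1.14. Both sums and *EMILIN2* were highest in *ΔWAPL*/*ΔSCC4*. Controls B and clone 1.14 had fibroblast sums near or above those of clone 3.3, and *EMILIN2* levels that overlapped those of controls A. The part of either list in the *EMILIN2* result was not tested.

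*EMILIN2* passed edgeR's quasi-likelihood test in clone 3.3, where it was higher by 1.35 (standard error 0.35, adjusted p = 0.0266). It was the only neighbour of 6 called there, where 8.07% of all genes were called. With DESeq2 its adjusted p was 0.0724, and in edgeR it was 0.166 without the second replicate of controls A, 0.0935 without the first of clone 3.3 and 0.062 without the second. In *ΔWAPL*/*ΔSCC4* it was higher than in controls A by 2.73 (standard error 0.29, edgeR, adjusted p = 0.000152), again the only neighbour called of 6, beside 7.95% of all genes. It was higher by 1.36 against clone 3.3 (edgeR, adjusted p = 0.000251) and by 3.99 against *ΔSCC4* (edgeR, adjusted p = 6.51e-07). The last value ran from 3.50 to 5.25 with 1 sample left out, the highest without the third replicate of *ΔSCC4*. These 4 calls share samples. In all but the third, *EMILIN2* passed the filter on low counts only through the group in which it was high, so it could enter only if it differed. It was removed by that filter in *ΔSCC4* against controls A, in clone 1.14 against controls B and between the controls. The difference between the clones, 1.64 with a standard error of 0.56, missed the threshold (edgeR, adjusted p = 0.208).

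*MYL12A* and *MYL12B* encode near-identical regulatory light chains of nonmuscle myosin II, whose phosphorylation switches on actomyosin contraction. They had the highest levels per transcript length of the 7 genes. Of the 50-base stretches of their canonical transcripts, 12.2% in *MYL12A* and 10.1% in *MYL12B* occur in another gene, so a minor part of their reads may have been left out or split. *MYL12A* had 195.4, 217.5 and 191.8 CPM in controls A and 168.0, 137.7 and 142.2 CPM in clone 3.3. It had 187.7, 194.8 and 176.7 CPM in controls B and 126.1, 144.7 and 128.4 CPM in clone 1.14. Both clones lay below their own controls in every sample, a description, since the share of all genes that did so was not counted. The difference was -0.45 in clone 3.3 (standard error 0.14, edgeR, adjusted p = 0.0579) and -0.50 in clone 1.14 (standard error 0.07, edgeR, adjusted p = 0.00319). The call in clone 3.3 turned on the fit, with an adjusted p of 0.0437 by DESeq2, 0.00325 by edgeR in one fit over all 18 samples and 0.0239 by edgeR against all 6 controls. The 2 clones differed from each other by 0.06 with a standard error of 0.14 (edgeR, adjusted p = 0.932), against -4.08 for *MYOM1*.

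In *ΔWAPL*/*ΔSCC4*, *MYL12A* was back in the range of controls A, at 206.9, 208.4 and 206.4 CPM. Against clone 3.3 it was higher by 0.47 (edgeR, adjusted p = 0.0107), while *MYOM1* was lower. It was 1 of 2 neighbours called there, beside 10.6% of all genes, the other being *EMILIN2*. The call on *MYL12A* was lost without the second replicate of clone 3.3 (edgeR, adjusted p = 0.0805) and without the first of *ΔWAPL*/*ΔSCC4* (edgeR, adjusted p = 0.0537). *ΔSCC4* had 167.2, 190.8 and 174.3 CPM, all below controls A, a difference of -0.19 that missed the threshold (edgeR, adjusted p = 0.383). *MYL12B* lies between *MYL12A* and *TGIF1*. It ranged from 255.5 to 291.0 CPM over the 6 controls, from 241.3 to 285.2 in clone 3.3 and from 216.6 to 221.8 in clone 1.14. It was lower in clone 1.14 by 0.30 (edgeR, adjusted p = 0.00342), where no sample overlapped the controls, and differed by -0.05 in clone 3.3 (edgeR, adjusted p = 0.917).

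*TGIF1* encodes a homeobox repressor that restrains TGF-beta signalling through SMAD proteins. Controls A had 26.6, 25.1 and 27.2 CPM and clone 3.3 had 21.1, 19.0 and 17.9 CPM. Controls B had 24.1, 29.5 and 24.7 CPM and clone 1.14 had 18.7, 20.1 and 19.1 CPM. As with *MYL12A*, neither clone overlapped its controls. The share of all genes without overlap was not counted, so such separation, here and for the other neighbours, is a description only. The difference was -0.46 in clone 3.3 (standard error 0.15, edgeR, adjusted p = 0.0717) and -0.45 in clone 1.14 (standard error 0.10, edgeR, adjusted p = 0.0187). The call in clone 1.14 was lost when any 1 of its 3 samples was left out (edgeR, adjusted p from 0.0525 to 0.0809), while that in clone 3.3 was reached in one fit over all samples (edgeR, adjusted p = 0.00653) and against all 6 controls (edgeR, adjusted p = 0.0173). *ΔWAPL*/*ΔSCC4* had 20.6 to 22.4 CPM, below every control A, and a difference of -0.28 that missed the threshold (edgeR, adjusted p = 0.249).

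In clone 1.14, therefore, 3 of 5 neighbours tested were called, beside 20.1% of all genes, and all 3 were the genes past the start of *MYOM1*: *MYL12A*, *MYL12B* and *TGIF1*. *MYOM1* itself was at 90.9% of controls B there, against 71.4% for *MYL12A*, 81.6% for *MYL12B* and 74.0% for *TGIF1*. In clone 3.3 *MYOM1* was at 5.29% of controls A and the same 3 genes were at 74.1%, 97.9% and 73.5%.

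*LPIN2* encodes a phosphatidate phosphatase of glycerolipid synthesis. It had from 40.4 to 48.8 CPM over the 6 controls and from 46.7 to 56.0 CPM over the 9 samples that lack WAPL. Its values lay above those of all their controls in clone 1.14 and in *ΔWAPL*/*ΔSCC4*, by 0.13 and 0.25 on the log2 scale, and neither passed the threshold (edgeR, adjusted p = 0.193 and 0.317). In clone 3.3 the difference was 0.20 with a standard error of 0.14 (edgeR, adjusted p = 0.564), and in *ΔSCC4* it was -0.01 with a standard error of 0.15 (edgeR, adjusted p = 0.969).

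*SMCHD1* encodes a noncanonical SMC protein needed for silencing on the inactive X chromosome. It was the most variable member among the controls after *EMILIN2*, with 124.2, 147.2 and 193.6 CPM in controls A and 138.4, 76.1 and 194.7 CPM in controls B. Clone 3.3 had 192.9, 177.9 and 139.1 CPM and *ΔWAPL*/*ΔSCC4* had 159.3, 196.6 and 149.3 CPM, both overlapping the controls. Clone 1.14 had 233.8, 184.6 and 216.7 CPM, a difference of 0.62 with a standard error of 0.29 that missed the threshold (edgeR, adjusted p = 0.176). It passed without the third replicate of controls B, at 0.97 (edgeR, adjusted p = 0.0186), and was 0.34, short of the threshold, without the second. *ΔSCC4* had 109.4, 128.6 and 133.5 CPM. *ΔWAPL*/*ΔSCC4* was higher than *ΔSCC4* by 0.43 (edgeR, adjusted p = 0.0223), 1 of 2 neighbours called there with *EMILIN2*, beside 27.3% of all genes. One fit over all 18 samples lost that call (edgeR, adjusted p = 0.186), as did leaving out the first or second replicate of either group (edgeR, adjusted p from 0.0532 to 0.134).

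In *ΔSCC4*, where *MYOM1* was about 98.4% higher, 0 of 5 neighbours tested were called by edgeR, beside 9.49% of all genes, 0 had an unadjusted p under 0.05 and 0 were called by DESeq2. Same-numbered samples of *ΔSCC4* and controls A deviated together, but no label says that they were paired. With the number as a block, the count of genes called over the series went from 1186 to 5754 of 12503 tested. *SMCHD1* (-0.31, edgeR, adjusted p = 0.00422) and *MYL12A* (-0.19, edgeR, adjusted p = 0.00972) were then called lower, 2 of 5 neighbours tested. This rests on an assumed pairing, and beside the count over all genes it does not set the neighbours apart. Between controls B and controls A, 0 of 5 neighbours were called by edgeR, beside 0.64% of all genes, with 0 at an unadjusted p under 0.05 and 0 by DESeq2. For the difference between the clones, 0 of 6 neighbours were called by edgeR, beside 2.65% of all genes, with 2 at an unadjusted p under 0.05 and 0 by DESeq2. For counts at an unadjusted p or by DESeq2, here and below, no share of all genes is given. They therefore cannot be set against a background.

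The difference between SCC4 loss with and without WAPL was tested for the neighbours in a comparison added after the data had been seen. It was 0.67 for *MYL12A* (standard error 0.14, edgeR, adjusted p = 0.00615) and 2.65 for *EMILIN2* (standard error 0.61, edgeR, adjusted p = 0.0103), 2 neighbours called of 6 beside 11.3% of all genes. *EMILIN2* passed the filter in this fit only through the groups without WAPL, where it was high, so its call there is no separate support. Both values are positive, so each gene stood higher after SCC4 loss in cells without WAPL than SCC4 loss alone would give. For *MYOM1* the same difference was -2.77, given without a test. The other 4 neighbours lay between 0.06 and 0.34 and were not called.

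**Figure D2:**
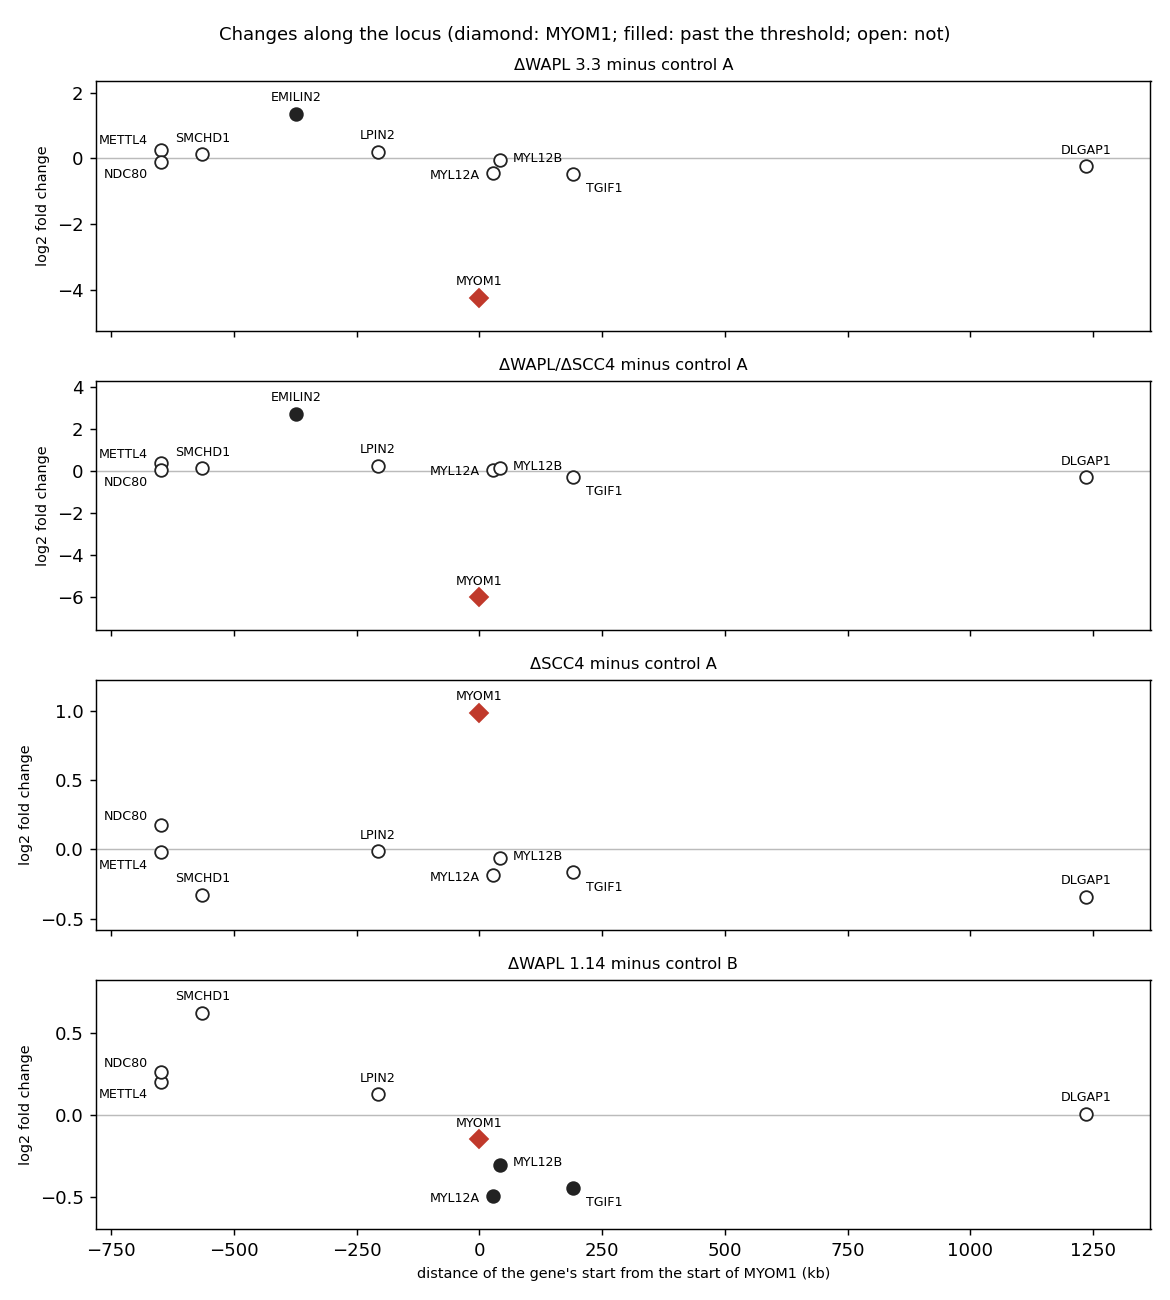
Log2 fold change against control of *MYOM1* (diamond) and of the genes within 1 Mb of it, against the distance of each gene's start from the *MYOM1* start in kb, in 4 genotypes with a vertical scale of their own. Filled circles passed the threshold and open ones did not, and *EMILIN2* is missing where its counts were too low to test. In the upper 2 panels *MYOM1* lies at -4.25 and -6.03 and the lowest other value is -0.46, of *TGIF1* in clone 3.3.

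Beyond the members, 3 more genes of the files lie within 1 Mb of *MYOM1*. These are *METTL4*, a methyltransferase-like gene, *NDC80*, a kinetochore gene, and *DLGAP1*, which encodes a postsynaptic scaffold. None was called in any comparison by edgeR or by DESeq2, with values from -0.37 to 0.36, and at an unadjusted p under 0.05 there was *METTL4* alone, in *ΔWAPL*/*ΔSCC4* against controls A and against *ΔSCC4*. The view was then widened to the first 15 Mb of the chromosome, which hold 66 genes besides *MYOM1*. In clone 3.3, 48 of them were tested and 5 called, 10.4% against 8.07% of all genes, and all 5 were higher. For 4 of them, *EMILIN2*, *ADCYAP1*, *COLEC12* and *APCDD1*, the reads in the controls were too few to be tested between the 2 sets of controls, so they entered only through the group in which they were high and could be called only in that direction. No gene was called lower by edgeR, 2 were lower at an unadjusted p under 0.05, and DESeq2 called 1 lower, *MYL12A*. The lowest value of the 48 was -0.50, for *PTPRM*. In *ΔWAPL*/*ΔSCC4* against controls A, 47 were tested and 5 called, 10.6% against 7.95% of all genes, all of them higher, and 3 of the 5 were likewise not tested between the controls. No gene was called lower by edgeR or by DESeq2, 2 were lower at an unadjusted p under 0.05, and the lowest value was -0.39, for *IMPA2*. The genes called higher in clone 3.3, named here after their values were seen, were *LDLRAD4* (2.22), *APCDD1* (1.42), *EMILIN2*, *ADCYAP1* and *COLEC12*. All but *EMILIN2* were also called higher in clone 1.14, *LDLRAD4* by 1.43, with the same limit of the filter on the other 3. *LDLRAD4* was also higher in controls B than in controls A, by 1.40, which missed the threshold (edgeR, adjusted p = 0.14). *APCDD1* was called higher in *ΔSCC4* too, by 1.81 (edgeR, adjusted p = 0.00691), with the same limit of the filter. It was the 1 gene called there of 45 tested, beside 9.49% of all genes.

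**Figure D3:**
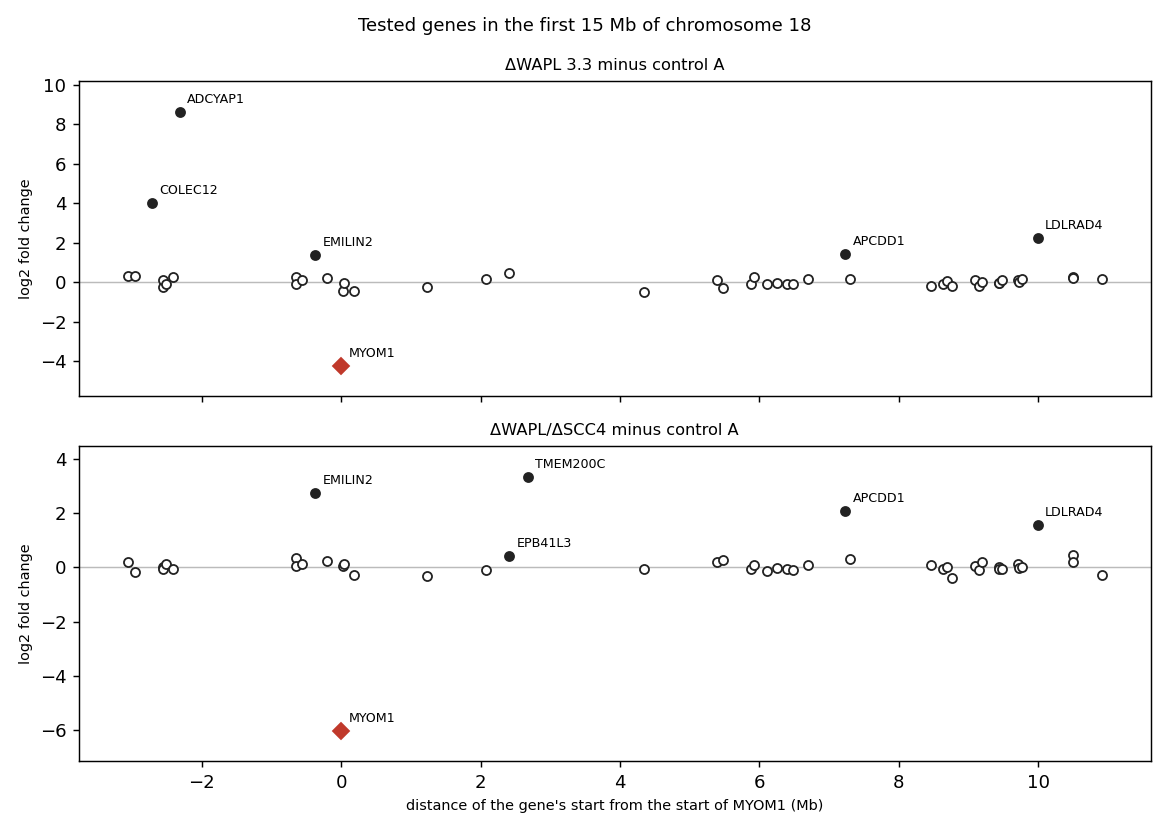
Log2 fold change of each tested gene in the first 15 Mb of chromosome 18 against the distance of its start from the *MYOM1* start in Mb, for clone 3.3 (above) and *ΔWAPL*/*ΔSCC4* (below), both against controls A. The diamond is *MYOM1*, filled circles passed the threshold and carry names, and all 5 filled circles in each panel lie above 0.

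Compared per kilobase of canonical transcript, the order in controls A was *MYL12B* (232 CPM per kb), *MYL12A* (210), *SMCHD1* (17.5), *MYOM1* (17.2), *TGIF1* (8.29), *LPIN2* (7.29) and *EMILIN2* (0.0832). *SMCHD1* and *MYOM1* differed by less than the spread of *SMCHD1*, whose SD was 4 CPM per kb. Of 15272 genes with reads in controls A, 72.2% had a lower level per kb than *MYOM1* and 14.8% a lower one than *EMILIN2*. In clone 3.3 *MYOM1* was at 0.909 CPM per kb, between *TGIF1* (6.09) and *EMILIN2* (0.216). In *ΔWAPL*/*ΔSCC4* it was at 0.264, below *EMILIN2* at 0.561, and so the least abundant of the 7 genes. In *ΔSCC4*, at 34.1, it was above *SMCHD1* at 14.0.

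Genes that work with the members were examined in 6 lists. The share of all genes called, beside which each count stands, was 8.07% in clone 3.3, 20.1% in clone 1.14, 9.49% in *ΔSCC4*, and in *ΔWAPL*/*ΔSCC4* 7.95% against controls A, 10.6% against clone 3.3 and 27.3% against *ΔSCC4*. None of the counts was tested against that share. Of 9 M-band and titin partners, among them the myomesins *MYOM2* and *MYOM3*, 6 were tested in clone 3.3 and 1 was called, *TRIM54*, a titin-associated ubiquitin ligase of muscle that was lower by 0.67 (edgeR, adjusted p = 0.0097). In *ΔWAPL*/*ΔSCC4*, *TRIM54* was the only one of 7 called, lower by 0.91 (edgeR, adjusted p = 0.00137). Against *ΔSCC4*, 3 of 7 were called lower, *TRIM54* (-1.38), the giant sarcomere protein titin *TTN* (-1.67) and the titin-binding *OBSL1* (-0.55). The *TTN* call rests on few reads, 7 to 15 per sample in *ΔWAPL*/*ΔSCC4* and 26 to 33 in *ΔSCC4*. In clone 1.14 and between the controls *TTN* had too few to be tested. The list's median was -0.35 in clone 3.3, -0.31 in *ΔWAPL*/*ΔSCC4* against controls A, 0.24 in *ΔSCC4* and -0.02 in clone 1.14. Over all genes it was within 0.005 of 0 in each of these. For the list it was -0.10 in *ΔWAPL*/*ΔSCC4* against clone 3.3 and -0.55 against *ΔSCC4*, where *MYOM1* differed by -1.80 and -7.02. It was -0.62 between the clones and 0.03 for SCC4 loss with and without WAPL, where *MYOM1* had -4.08 and -2.77. With so few genes tested, each median rests on the middle genes alone. *MYOM2*, singled out after its values were seen, gave the -0.62. It differed by -0.90 in clone 3.3, -0.26 in clone 1.14 and 0.90 in *ΔSCC4*. In *ΔWAPL*/*ΔSCC4* it differed by 0.19 against controls A, 1.075 against clone 3.3 and -0.71 against *ΔSCC4*, and none of these was called. In clone 3.3 the medians of the other 5 lists lay between -0.10 and 0.17. None of the list was called by edgeR or DESeq2 in *ΔSCC4* or in clone 1.14, with 3 and 1 at an unadjusted p under 0.05 in edgeR. *TRIM54* also differed between the clones, by -0.83 (edgeR, adjusted p = 0.00735), the same sign as *MYOM1*. Part of this lay between the controls, with a mean of 27.5 CPM in controls A, 20.6 in controls B and 17.5 in clone 3.3. Controls B differed from controls A by -0.42 (edgeR, adjusted p = 0.298) and clone 1.14 from controls B by 0.18 (edgeR, adjusted p = 0.222).

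Of 14 genes of nonmuscle myosin II and its regulators, 11 were tested in clone 3.3 and *MYH9*, a heavy chain that binds the light chains encoded by *MYL12A* and *MYL12B*, was the 1 called, lower by 0.59 (edgeR, adjusted p = 0.0256). *MYH9* was higher in *ΔWAPL*/*ΔSCC4* than in clone 3.3 by 0.71 (edgeR, adjusted p = 0.000275). This is the same pair of directions as *MYL12A*, in comparisons that share the clone 3.3 samples. In clone 1.14, 5 of 12 were called, 2 higher and 3 lower, among them *MYH9* (-0.27), the light chain kinase *MYLK* (0.42) and the heavy chain *MYH14*, which had 18 to 28 reads in controls B and 0 to 1 in clone 1.14 and passed the filter only through the controls. The heavy chain *MYH10* was called only in *ΔWAPL*/*ΔSCC4* against *ΔSCC4* (0.42).

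Of 12 genes of the lipin and glycerolipid list, 11 were tested and 4 called in clone 3.3. *LPIN3*, a paralogue of *LPIN2*, was lower by 0.93 (edgeR, adjusted p = 0.00172) and came back in *ΔWAPL*/*ΔSCC4*, higher than in clone 3.3 by 1.02 (edgeR, adjusted p = 0.000113). *DGAT2*, which makes triglyceride, was lower in clone 3.3 by 0.87, and the lipid phosphate phosphatases *PLPP1* and *PLPP3* differed by -0.61 and 1.27. In clone 1.14 *PLPP1* was lower by 0.89 and 2 of 11 were called, in *ΔSCC4* 1 of 11 and in *ΔWAPL*/*ΔSCC4* against controls A 1 of 11. Of 9 extracellular matrix genes listed with *EMILIN2*, 5 were tested in clone 3.3 and *FBN2*, a fibrillin, was the 1 called, lower by 1.13 (edgeR, adjusted p = 0.000215). *FBN2* was lower also in clone 1.14 (-0.82), *ΔSCC4* (-0.84) and *ΔWAPL*/*ΔSCC4* (-0.90), the opposite sign to *EMILIN2* in clone 3.3 and *ΔWAPL*/*ΔSCC4*. *EMILIN3* was higher in clone 1.14 by 0.32 (edgeR, adjusted p = 0.00894), and *FBN1* and *FBLN5* were higher in *ΔWAPL*/*ΔSCC4* than in *ΔSCC4* by 0.63 and 0.47.

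Of 10 SMC proteins and partners of SMCHD1, 9 were tested and 0 called by edgeR in clone 3.3, in clone 1.14, in *ΔSCC4* or in *ΔWAPL*/*ΔSCC4* against controls A. In these, 1, 0, 2 and 0 genes had an unadjusted p under 0.05, and DESeq2 called 0 in each. *LRIF1*, a nuclear protein that binds SMCHD1, was lower in *ΔWAPL*/*ΔSCC4* than in clone 3.3 by 0.52 and than in *ΔSCC4* by 0.68 (edgeR, adjusted p = 0.02 and 0.00163). *SMC1A* and *SMC5* were higher than in *ΔSCC4* by 0.39 and 0.43, as *SMCHD1* was. Of 13 genes of the TGIF and TGF-beta list, 12 were tested. *SMAD3*, a signal transducer of the pathway, was lower in clone 3.3 by 0.53 (edgeR, adjusted p = 0.0231), and the inhibitory *SMAD7* was higher in clone 1.14 by 0.31 (edgeR, adjusted p = 0.048), each the 1 gene called there, though DESeq2 called 0 of the 12 in clone 1.14. The corepressor *SIN3A* was the 1 called in *ΔWAPL*/*ΔSCC4* against *ΔSCC4*, higher by 0.42 (edgeR, adjusted p = 0.0194).

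The pattern of *MYOM1* over the 18 samples was compared with that of 11656 genes by Pearson's r of log2 CPM, as a description, since the samples share genotypes and libraries. The closest were *GTSF1* on chromosome 12 (0.982), *ZNF385D* on chromosome 3 (0.980), *LGALS8* on chromosome 1 (0.978), *ZNF329* on chromosome 19 (0.970) and *SETBP1* on chromosome 18 (0.953). *GTSF1* had a mean of 95.6 CPM in controls A, 12.1 in clone 3.3, 2.06 in *ΔWAPL*/*ΔSCC4*, 129.0 in *ΔSCC4*, 91.0 in controls B and 97.8 in clone 1.14. *ZNF385D* was at 0 reads in *ΔWAPL*/*ΔSCC4* and at 2.1 CPM in controls A. All 5 were low in the 2 groups of the clone 3.3 lineage, the pattern they were chosen for. In clone 1.14 *GTSF1* and *ZNF385D* overlapped controls B, *LGALS8* and *ZNF329* lay above them in every sample and *SETBP1* below them in every sample. The most unlike were *DMRTA2* (-0.972), *ADM* (-0.927) and *AMER2* (-0.925), and *EMILIN2* stood next to them at -0.920. Of the other neighbours, *TGIF1* had 0.445, *MYL12A* -0.106, *SMCHD1* -0.243, *MYL12B* -0.440 and *LPIN2* -0.579. None of the 5 most alike by Spearman's rho, *EPHA3*, *ZSWIM5*, *LHX6*, *ANO4* and *DECR1*, was among the 5 by Pearson's r.

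**Figure D4:**
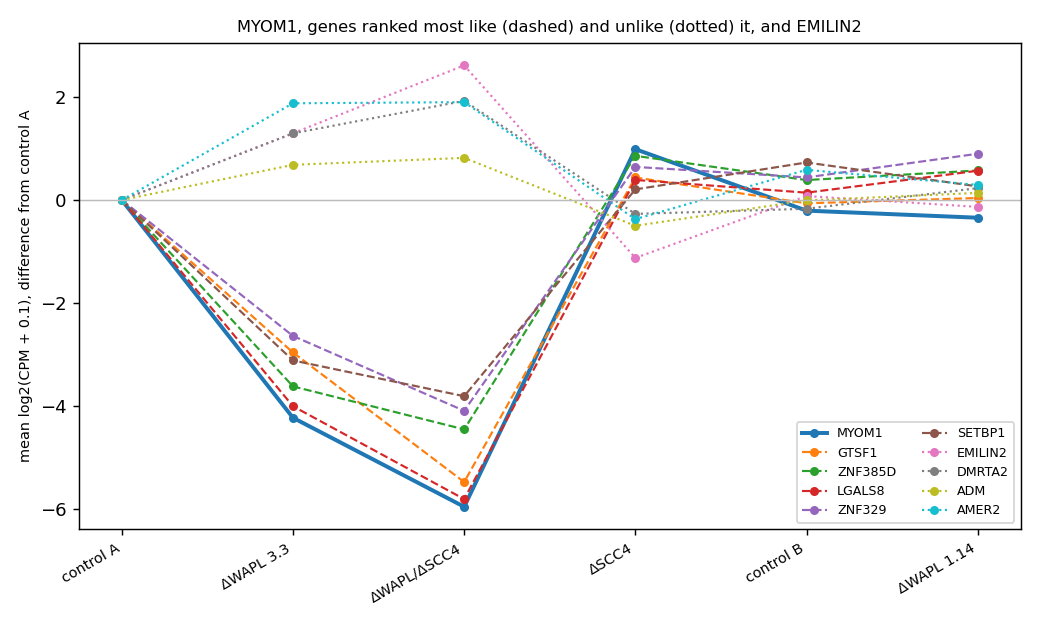
Group means of log2(CPM + 0.1) minus that of controls A over the 6 groups, for *MYOM1* (thick line), the 5 genes most like it (dashed), the 3 most unlike it and *EMILIN2* (dotted). *MYOM1* and the dashed genes are at their lowest in *ΔWAPL*/*ΔSCC4*, where the dotted genes are above controls A.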

How the data were processed

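RNA was measured by strand-specific sequencing of polyadenylated RNA in 18 samples. The authors aligned the reads with TopHat (TopHat2 2.0.9 and hg19 in the submitters' processing notes) and deposited raw counts of reads per gene made with HTSeq, without normalization, 1 table per sample. Lines for reads on no single gene, 20.3% to 22.6% of reads, were left out. Of the gene identifiers, 96.6% were found in the GRCh37 annotation (GENCODE v44, lifted to this build), from which symbols and positions came.

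The deposited counts were tested in edgeR 4.0.16 (R 4.3.3) with TMM scaling, filterByExpr at its defaults, the quasi-likelihood test and Benjamini-Hochberg adjustment over all genes tested, at the threshold of 0.05 that the study used. The study called genes with DESeq2, and DESeq2 1.42.0 was run as an alternative. Each comparison was fitted on its own groups. *MYOM1* was in every fit, and no p-value of it was used. Standard errors of the other genes are the size of the log2 difference divided by the square root of the quasi-likelihood F statistic. CPM values are scaled by TMM over all 18 samples, and log2 CPM has a prior count of 2. Precision is limited by depth, which was 10007646 to 20711127 counts per sample. The fits were tested on simulated data.

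The members and lists were chosen with earlier results of these data known. The genes named are the members, the targeted genes, genes within 1 Mb that passed, up to 4 genes of each list with the smallest adjusted p in any comparison, and the 5 genes most like and 3 most unlike *MYOM1*. Others are said to be chosen after their values were seen. A result that this rule would name is not reported here. Same-numbered samples deviated together from their group means, by a cut of 0.1, only in *ΔSCC4* and controls A (r = 0.675, 0.115 and 0.615). The values were 0.0495, 0.319 and 0.196 in clone 1.14 and controls B, and -0.515, -0.000816 and -0.487 in clone 3.3 and controls A. The numbers come from the sample labels, which do not say that samples were paired. As alternatives, the filter was dropped or set to 10 counts in each sample, the scaling was taken from DESeq2, all 18 samples or all 6 controls were fitted together, the replicate number was entered as a block, and each sample was left out in turn.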

Additional observations from a re-analysis of the deposited data

Results flagged for a closer look

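SCC4 loss had opposite values for *MYOM1* in wild-type cells and in clone 3.3, which is why it is listed here. Lack of WAPL and the background of clone 3.3 cannot be told apart in it. All 3 *ΔSCC4* samples were above controls A, a log2 difference of 0.98, and all 3 *ΔWAPL*/*ΔSCC4* samples were below clone 3.3, a difference of -1.80. The difference between the 2 was not tested, since *MYOM1* was chosen from these samples.

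For 2 neighbours the same difference was tested by edgeR's quasi-likelihood test, in a comparison added after the data were seen, and it passed the threshold. It was 0.67 for *MYL12A* (adjusted p = 0.00615, edgeR) and passed in all 12 fits that left out 1 sample, with values from 0.62 to 0.76. It was 2.65 for *EMILIN2* (adjusted p = 0.0103, edgeR) with values from 2.16 to 3.91 in the 12 such fits, the highest without the third replicate of *ΔSCC4*, which held 6 of that group's *EMILIN2* reads. *EMILIN2* passed the filter only through the groups without WAPL, where it was high, so its passing these fits is no support. Over the 6 controls, no sample stood apart in any of the 7 genes by Dixon's test.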

How the results depend on the processing

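The limits are these. *EMILIN2* rests on at most 62 reads per sample and on 4 to 12 in control, 1 clone stands for each *ΔWAPL* genotype, and set and clone cannot be told apart. Leaving out a sample leaves 2, and the smallest exact p that 3 samples against 3 allow is 0.1, so single genes rest on the shared spread of edgeR. *MYOM1* kept its sign in every fit. It moved by more than the replicate spread against all 6 controls in clone 1.14 (-0.25), and for the difference between the clones it lay between -4.24 and -3.99 with a sample left out. No scaling moved the median of all genes by over 0.1.

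The number of neighbours called changed as follows. The number of all genes called also moved with the setting, as given further below, so these counts are not read against the main shares. In clone 3.3 the number of neighbours went from 1 to 0 with at least 10 counts in every sample, which removes *EMILIN2*. It went to 3 in one fit over 18 samples, where all genes called rose from 1008 to 1753, and to 3 with all 6 controls. With a sample left out it lay between 0 and 2. In *ΔWAPL*/*ΔSCC4* it went from 1 to 0 with at least 10 counts. Against *ΔSCC4* it went from 2 to 1 with at least 10 counts and to 1 in one fit, and lay between 1 and 3 with a sample left out. Against clone 3.3 it lay between 1 and 2 with a sample left out. For SCC4 loss with and without WAPL it went from 2 to 1 with at least 10 counts. With the replicate block it went from 0 to 2 in *ΔSCC4*, where 5754 of 12503 genes were then called. Elsewhere the block brought in *SMCHD1* in clone 1.14 (0.71, adjusted p = 0.0488, edgeR). No label says that same-numbered samples were paired in any comparison.

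Differences near 0 changed sign, none of them past the threshold. *TGIF1* between the clones was 5.1e-05 and became -0.0072 with DESeq2's size factors, -0.0061 with DESeq2, -0.018 with no filter, -0.0078 with at least 10 counts, -0.00064 in one fit and -0.0082 with the block. *MYL12B* between the controls became 0.00016 in one fit. With a sample left out, *SMCHD1* lay between -0.014 and 0.31 in clone 3.3, -0.016 and 0.31 in *ΔWAPL*/*ΔSCC4*, -0.14 and 0.084 against clone 3.3, and -0.53 and 0.11 between the controls. *MYL12B* lay between -0.0901 and 0.0019 in clone 3.3 and between -0.054 and 0.067 between the controls. *LPIN2* lay between -0.13 and 0.054 in *ΔSCC4*, -0.023 and 0.094 in *ΔWAPL*/*ΔSCC4* against clone 3.3, and -0.0026 and 0.19 for SCC4 loss with and without WAPL. *TGIF1* lay between -0.101 and 0.032 between the controls and between -0.095 and 0.053 between the clones, and *MYL12A* between -0.029 and 0.13 between the clones.

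The number of all genes called, which sets the background, rose from 1008 to 1753 in clone 3.3 and from 1186 to 2556 in *ΔSCC4* in one fit. With the block it was 5754 in *ΔSCC4*. Between the controls it went from 80 to 168 with DESeq2, 127 with no filter, 408 in one fit and 162 with the block, and between the clones from 339 to 211 with at least 10 counts and 173 with the block. With a sample left out it ran from 1415 to 4820 in clone 1.14 (2536 with all), 662 to 2317 in *ΔSCC4*, 586 to 1552 in *ΔWAPL*/*ΔSCC4* (1001), 861 to 1805 against clone 3.3 (1330), 2080 to 5020 against *ΔSCC4* (3447), 0 to 107 between the controls and 218 to 372 between the clones. The cause of these changes was not tested.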
